A study of Mus musculus with 6 samples.

Results

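The AP-1 transcription factor genes were followed in mouse cells early in reprogramming, with and without the histone H2B ubiquitin ligase RNF20. The genes were chosen by symbol from the count table: the Fos family (Fos, Fosb, Fosl1, Fosl2), the Jun family (Jun, Junb, Jund), Atf3, and the small Maf genes Maff and Mafk. They are 10 of the 16982 genes in that table, and all 10 passed the filter on low counts that left 13386 genes for testing.

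AP-1 is a dimer of basic leucine zipper (bZIP) proteins. Fos proteins cannot pair with one another and bind DNA with a Jun partner, whereas Jun proteins can pair within their own family. Growth factors, cytokines and stress act on AP-1 through mitogen-activated protein kinases (MAPK), which raise Fos and Jun transcription and phosphorylate the proteins. In fibroblasts AP-1 occupies many somatic enhancers, and its removal from these sites accompanies reprogramming towards pluripotency. ATF3 is a stress-induced bZIP protein that pairs with Jun proteins. MAFF and MAFK lack a transactivation domain and pair mainly with CNC proteins such as NFE2L2, and also with Fos proteins.

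RNA was compared between 3 wild-type (WT) and 3 Rnf20-/- knockout (KO) libraries of reprogrammable cells on a C57BL/6 background. The cells were mouse embryonic fibroblasts (MEF) infected with retroviruses carrying OCT4, SOX2, KLF4 and C-MYC, and all were harvested on day 3. According to the methods of the study, the knockout was made from Rnf20 Flox/Flox cells carrying Tamoxifen-cre, a Cre expressed in all tissues and switched on with 4-OH tamoxifen. The labels list every culture as untreated, and the sources used here do not state whether the WT cells carried the floxed alleles or Cre, or received the drug, so the deletion cannot be told apart from these. Infected cells were replated on mitomycin-C-treated MEF, which can contribute RNA. The labels do not say whether replicates came from separate embryos or cultures, so the p-values measure only the spread between these samples. That spread may be technical, apart from the difference in Ddx3y among the KO libraries given below. In such bulk RNA, fewer cells of a type and less RNA per cell cannot be told apart.

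The libraries held between 20545442 and 21746898 counts. Values are CPM (counts scaled to the size of each library) after TMM, edgeR's correction for library composition. Rnf20 lay at 107, 107 and 106 CPM in WT 1 to 3 and at 18.7, 18.5 and 16.4 CPM in KO 1 to 3, a log2 fold change of -2.57 (SE 0.0812, edgeR adjusted p = 0.000163). KO 3 stood apart from the other libraries: the chi-square per gene between its counts and those of KO 1 and KO 2 was 92.4 and 101, against 8.57 between KO 1 and KO 2 and 6.04 to 8.92 between WT pairs. Ddx3y, a gene of the Y chromosome, lay between 94.4 and 101 CPM in WT and at 128 CPM in KO 2 but had no counts in KO 1 and KO 3. KO 2 thus differed from KO 1 and KO 3 in Y-chromosome RNA. As every WT library held it, this difference is partly confounded with genotype. Both KO 3 and the uneven presence of Ddx3y are taken up beside the results.

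Promoter sequences (250 bases before to 50 bases after a start site) were read from RefSeq on GRCm38.p6 and matched 9 of the 10 genes, at 11 start sites. No entry was found for Fosl1. Both strands were searched for the 7-base AP-1 site TGANTCA, for the 8-base form TGANNTCA that AP-1 and CREB/ATF proteins share, and for TGACGT, the core of the cyclic AMP response element (CRE). TGACGT lies within the 8-base form where the letters read TGACGTCA. None of the 11 start sites held TGANTCA, which 7.81% of all 32851 promoters held. TGANNTCA was found at 4 starts (Jun, Jund and 2 of Maff) against 14.1% of all promoters, where the Jund start in the RefSeq table lies upstream of the GENCODE span of the gene given below, and TGACGT at 3 (Atf3, Fos and Maff) against 7.51%. The promoters of 3 genes that were higher in the knockout (Atf3, Maff, Junb) and of 2 that did not pass the test (Fos, Jun) are shown so that both kinds can be read side by side. Capitals mark TGANNTCA and TGACGT on either strand, and each sequence runs 5′ to 3′ along the gene's own strand.
Atf3 (GRCm38.p6 chr1:191183284-191183583, minus strand): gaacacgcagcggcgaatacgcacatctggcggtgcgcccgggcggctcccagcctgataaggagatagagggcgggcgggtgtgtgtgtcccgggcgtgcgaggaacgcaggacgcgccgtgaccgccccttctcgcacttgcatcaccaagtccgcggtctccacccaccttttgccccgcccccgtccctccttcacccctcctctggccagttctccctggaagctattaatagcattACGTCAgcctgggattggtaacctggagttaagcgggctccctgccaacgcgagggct
Maff (GRCm38.p6 chr15:79347270-79347569, plus strand): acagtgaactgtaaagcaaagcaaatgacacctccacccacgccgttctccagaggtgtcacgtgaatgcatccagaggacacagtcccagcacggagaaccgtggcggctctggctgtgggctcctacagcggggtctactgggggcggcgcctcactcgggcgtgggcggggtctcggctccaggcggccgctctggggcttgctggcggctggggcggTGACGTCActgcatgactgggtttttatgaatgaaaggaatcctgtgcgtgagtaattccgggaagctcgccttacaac
Junb (GRCm38.p6 chr8:84978699-84978998, minus strand): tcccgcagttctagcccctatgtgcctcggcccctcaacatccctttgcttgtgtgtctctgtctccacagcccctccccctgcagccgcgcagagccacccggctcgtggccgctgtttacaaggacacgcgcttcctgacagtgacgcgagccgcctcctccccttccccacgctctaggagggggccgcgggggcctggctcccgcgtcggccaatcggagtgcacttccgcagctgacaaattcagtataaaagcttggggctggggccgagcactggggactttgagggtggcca
Fos (GRCm38.p6 chr12:85473640-85473939, plus strand): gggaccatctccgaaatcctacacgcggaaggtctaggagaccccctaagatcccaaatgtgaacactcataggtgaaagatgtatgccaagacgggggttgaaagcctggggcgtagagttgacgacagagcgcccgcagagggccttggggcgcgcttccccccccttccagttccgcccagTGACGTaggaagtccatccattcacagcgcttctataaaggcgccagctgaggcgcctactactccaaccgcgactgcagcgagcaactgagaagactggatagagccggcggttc
Jun (GRCm38.p6 chr4:95052173-95052472, minus strand): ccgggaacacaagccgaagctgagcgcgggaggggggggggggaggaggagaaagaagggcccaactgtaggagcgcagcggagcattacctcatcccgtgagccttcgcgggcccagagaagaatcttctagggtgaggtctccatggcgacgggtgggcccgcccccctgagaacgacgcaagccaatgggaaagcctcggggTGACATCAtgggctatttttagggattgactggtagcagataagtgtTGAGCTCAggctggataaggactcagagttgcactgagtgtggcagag

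The match in Atf3 begins 8 bases before the start site and reads on the opposite strand, and that in Fos begins 66 bases before it. Maff holds TGACGTCA from 29 bases before this start, which is 1 of its 3 listed starts. Jun holds TGACATCA from 45 bases before its start and a second 8-base match at position 3 of the transcript. Junb has neither motif in this window, but a CCAAT box 36 bases before the start and a TATAA match at position 1. This RefSeq start (chr8:84978748) lies upstream of the GENCODE span of Junb given below. That of Atf3 (chr1:191183333) lies inside the GENCODE span of its gene. Matches thus occurred in genes that passed the test and in genes that did not, and a match of letters is not a measurement of binding.

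In the knockout, 6 of the 10 AP-1 genes rose: Fosl1, Atf3, Maff, Mafk, Fosl2 and Junb. Fos, Fosb, Jun and Jund did not pass the test. A gene is said to rise or fall where the quasi-likelihood test of edgeR gave it an adjusted p (Benjamini-Hochberg, over all 13386 genes) under 0.05. By this rule 16.4% of all genes were higher in the knockout and 16.6% were lower, so differences were common. No AP-1 gene fell, none was lower at an unadjusted p under 0.05, and neither DESeq2 nor edgeR's exact test called any lower. Every KO library lay above every WT library in 6 of the 10 AP-1 genes, against 26.6% of all genes tested. These were the same 6 that rose, and as separation and test use the same values, the separation adds no further support. The median log2 fold change was 0.75 over the 10 genes and -0.00032 over all genes. The study's thresholds (adjusted p under 0.01, fold over 2 and mean FPKM over 1 in either genotype) were also applied to the edgeR values. By them 1 gene, Atf3, was called higher, against 1.5% of all genes called higher.

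**Figure D1:**
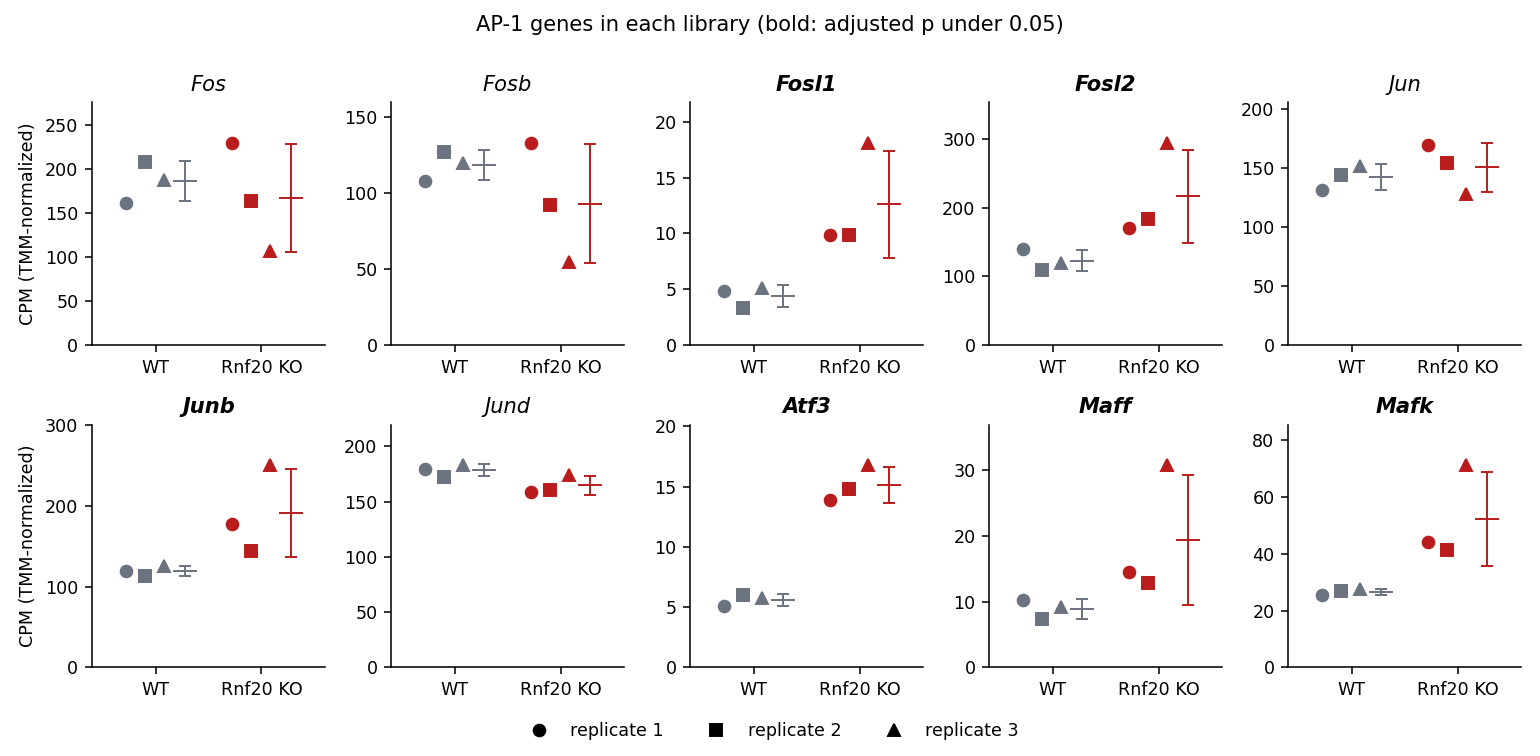
CPM of each AP-1 gene (vertical axis, from 0, a separate scale per gene) in the 3 WT libraries (grey) and 3 Rnf20 KO libraries (red), with symbols for replicates and horizontal marks with bars for the mean ± SD. The 6 genes in bold passed the test and their groups do not overlap, whereas in Fos, Fosb, Jun and Jund they overlap, and KO 3 is the lowest library for Fos and Fosb and the highest for all 6 genes in bold.

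Within the Fos family the members without a strong transactivation domain, Fosl1 and Fosl2, rose, whereas Fos and Fosb did not pass. Fosl1 (FRA-1; ENSMUSG00000024912, GRCm38 chr19:5447547-5455946, plus strand) lay at 4.9, 3.32 and 5.12 CPM in WT 1 to 3 and at 9.88, 9.83 and 18.1 CPM in KO 1 to 3. The groups did not overlap, and KO 3 was the highest. Fosl1 rose by 1.5 on the log2 scale (SE 0.304, edgeR adjusted p = 0.0137), or 2.83-fold. Without KO 3 it was 1.15 (edgeR adjusted p = 0.000787). Without WT 2 or WT 3 the adjusted p from edgeR was 0.0580 or 0.0531. Fosl1 rested on 70 to 108 counts in each WT library. Of its 2033 annotated exon bases 1163 lie opposite exons of Ccdc85b, and whether counting used the strand is not stated. Ccdc85b lay at 7.94, 7.78 and 9.59 CPM in WT and at 5.82, 5.84 and 6.76 CPM in the knockout (log2 fold change -0.46, edgeR adjusted p = 0.0583), which is the opposite sign to Fosl1.

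Fosl2 (FRA-2; ENSMUSG00000029135, chr5:32135801-32157842, plus strand), a regulator of matrix and bone genes, was far more abundant, at 140, 109 and 120 CPM in WT and 171, 184 and 294 CPM in the knockout. The lowest KO library lay above the highest WT library. Its log2 fold change was 0.82 (SE 0.217, edgeR adjusted p = 0.0305). KO 3 enlarged the difference, which without it was 0.53 (edgeR adjusted p = 0.000871). Leaving out WT 1, WT 2 or WT 3 ended the call, with edgeR adjusted p of 0.0674, 0.112 and 0.107.

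Fos (ENSMUSG00000021250, chr12:85473890-85477273, plus strand), the classical immediate early gene, lay at 162, 208 and 188 CPM in WT and at 230, 164 and 107 CPM in the knockout. KO 1 was above and KO 3 below all WT libraries. Between genotypes the log2 fold change was -0.16 (SE 0.259, edgeR adjusted p = 0.663), and without KO 3 the sign turned, to 0.08 (edgeR adjusted p = 0.634). Fosb (ENSMUSG00000003545, chr7:19302696-19310051, minus strand), induced with Fos by the same stimuli, lay at 108, 127 and 120 CPM in WT and at 133, 92 and 54.6 CPM in the knockout. It had the same order of KO libraries as Fos, with KO 1 above and KO 3 below the WT range. The log2 fold change was -0.35 (SE 0.290, edgeR adjusted p = 0.381).

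The spread of these 2 genes between KO libraries was wide. The SD of log2 CPM of Fos was 0.18 in WT and 0.55 in the knockout, and that of Fosb 0.12 and 0.64, against medians over all genes of 0.10 in WT and 0.20 in the knockout. The highest KO library exceeded the lowest 2.14-fold for Fos and 2.43-fold for Fosb. The ratio of Fos to Fosb per length moved less, at 3.2, 3.47 and 3.32 in WT and 3.68, 3.79 and 4.18 in the knockout. Every KO ratio lay above every WT ratio (exact two-sided permutation p = 0.1, the smallest that 3 against 3 samples allow).

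In the Jun family Junb rose, and Jun and Jund did not pass. Junb (ENSMUSG00000052837, chr8:84974484-84978718, minus strand), whose protein is a weaker activator than JUN and can restrain it, lay at 119, 114 and 126 CPM in WT and at 178, 145 and 251 CPM in the knockout. The groups did not overlap. Junb rose by 0.68 on the log2 scale (SE 0.191, edgeR adjusted p = 0.0354), or 1.60-fold, and without KO 3 it was 0.44 (edgeR adjusted p = 0.00171). Without WT 1, WT 2, WT 3 or KO 1 the adjusted p from edgeR was 0.107, 0.119, 0.10 and 0.0561, which ended the call each time. Exons of Prdx2 overlap 173 of 2301 exon bases of Junb on the opposite strand, and Prdx2 had a log2 fold change of -0.13 (edgeR adjusted p = 0.462).

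Jun (ENSMUSG00000052684, chr4:95049034-95052222, minus strand), which encodes c-JUN, the main target of the JNK kinases, lay at 131, 144 and 152 CPM in WT and at 169, 154 and 128 CPM in the knockout. KO 1 and KO 2 were above the WT range and KO 3 below it. The log2 fold change was 0.08 (SE 0.116, edgeR adjusted p = 0.612), and without KO 1 it was -0.0048 (edgeR adjusted p = 0.978). Jund (ENSMUSG00000071076, chr8:70698949-70700616, plus strand), known for steady expression, lay at 179, 172 and 183 CPM in WT and at 159, 160 and 174 CPM in the knockout. KO 1 and KO 2 were below the WT range, and KO 3 was within it. Jund had a log2 fold change of -0.11 (SE 0.0694, edgeR adjusted p = 0.238). Without KO 3 Jund passed the test as lower, at -0.16 (edgeR adjusted p = 0.0317). Jund also had the least spread among KO libraries, whose highest value exceeded the lowest 1.1-fold. Exons of Gm11175 lie opposite 877 of its 1668 exon bases, and those of Junos opposite 232 of 3189 bases of Jun.

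Atf3 (ENSMUSG00000026628, chr1:191170296-191218039, minus strand) showed the steadiest rise. It lay at 5.09, 6.03 and 5.74 CPM in WT 1 to 3 and at 13.9, 14.8 and 16.8 CPM in KO 1 to 3. The KO libraries were close to one another, with the highest 1.21-fold above the lowest, and all lay above WT. Atf3 rose by 1.43 on the log2 scale (SE 0.133, edgeR adjusted p = 0.00251), or 2.70-fold, and without KO 3 it was 1.35 (edgeR adjusted p = 2.84e-05). It passed in all 14 refits with edgeR or DESeq2 (other scalings, filters, tests, terms and each library left out), with adjusted p between 3.01e-14 and 0.0476. The WT libraries held 107 to 127 counts of it.

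Both small Maf genes rose. Mafk (ENSMUSG00000018143, chr5:139791513-139802653, plus strand) lay at 25.3, 26.9 and 27.4 CPM in WT and at 44, 41.4 and 71.1 CPM in the knockout. The WT values were tight, and KO 3 lay well above the other KO libraries. Mafk rose by 0.98 on the log2 scale (SE 0.209, edgeR adjusted p = 0.0162), and 0.69 without KO 3 (edgeR adjusted p = 5.46e-05). Without WT 1, WT 2 or WT 3 the edgeR adjusted p was 0.0647, 0.0656 and 0.0660, which ended the call. Exons of Tmem184a overlap 169 of 3901 exon bases of Mafk on the other strand. Maff (ENSMUSG00000042622, chr15:79346621-79359076, plus strand), the stress-inducible small Maf, lay at 10.2, 7.31 and 9.21 CPM in WT and at 14.6, 12.8 and 30.8 CPM in the knockout. The lowest KO value was above the highest WT value, and KO 3 exceeded KO 2 2.41-fold. Maff rose by 1.12 on the log2 scale (SE 0.350, edgeR adjusted p = 0.0481). Maff was the member nearest to the threshold: its log2 fold change was 0.62 without KO 3 (edgeR adjusted p = 0.00646), and its adjusted p was 0.104, 0.156 and 0.134 without WT 1, WT 2 or WT 3.

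The libraries of the knockout did not deviate alike across the 10 genes. Against the WT mean of log2 CPM, KO 3 differed by 2.03 for Fosl1, 1.79 for Maff, 1.42 for Mafk, 1.26 for Fosl2 and 1.07 for Junb, whereas KO 1 differed by 1.16, 0.72, 0.73, 0.48 and 0.58. For Fosb the differences were 0.17, -0.36 and -1.11 in KO 1, KO 2 and KO 3. The rise of the 6 genes was present in each KO library, while the deviation of Fos and Fosb took both signs. KO 2, the KO library in which Ddx3y was detected, differed by 1.15 for Fosl1, 1.39 for Atf3, 0.53 for Maff, 0.64 for Mafk, 0.59 for Fosl2 and 0.28 for Junb. In a fit with a term for the detection of Ddx3y beside the genotype, where KO 2 alone sets the genotype difference within libraries with Ddx3y, Atf3 still passed and the other 5 genes did not. Their log2 fold changes there were 1.14 for Fosl1, 0.58 for Fosl2, 0.28 for Junb, 0.52 for Maff and 0.64 for Mafk, with edgeR adjusted p between 0.156 and 0.477. Of all genes tested, 80 were higher in that fit, against 2195 without the term. All 6 genes remained called without KO 3, where 3230 of all genes were higher.

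**Figure D2:**
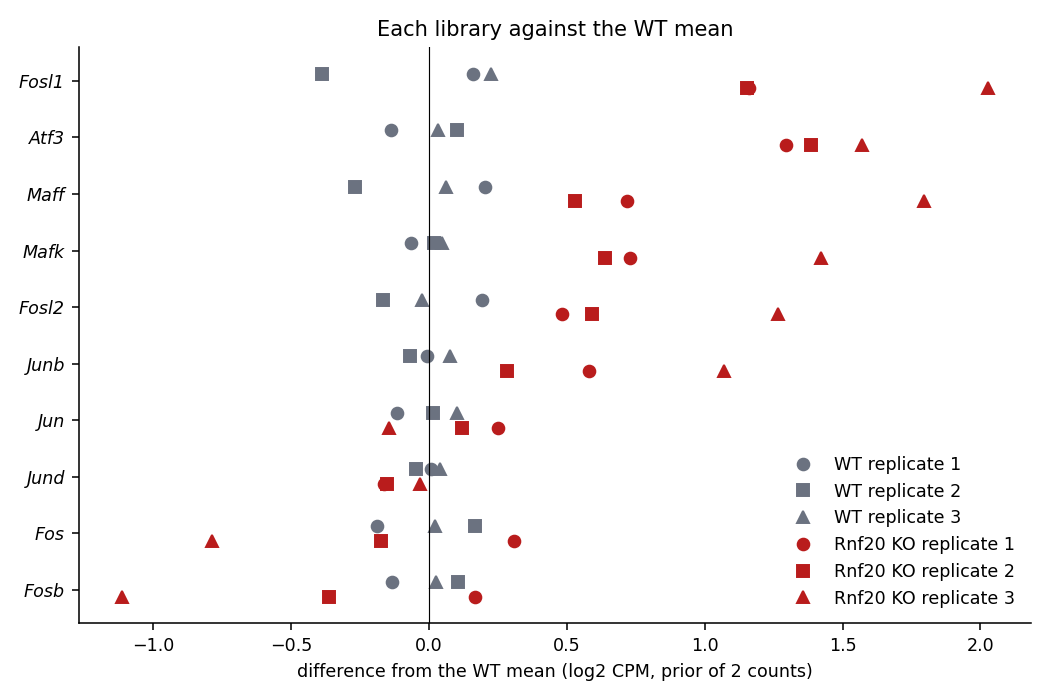
Difference of each library from the WT mean on the log2 CPM scale (horizontal axis) for each AP-1 gene (rows, ordered by fold change), with WT in grey, Rnf20 KO in red and a symbol per replicate. The KO libraries lie right of every WT library in the upper 6 rows, farthest in KO 3 (2.03 for Fosl1), and on both sides of 0 for Fos and Fosb, where KO 3 lies at -0.79 and -1.11.

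Levels of different genes were compared per length, as RPKM (CPM per kilobase of the deposited gene length). In WT the order of mean RPKM was Jund at 107, Junb at 66.1, Fos at 54.8, Jun at 44.6, Fosl2 at 18.8, Fosb at 16.4, Mafk at 8.57, Maff at 4.6, Atf3 at 2.83 and Fosl1 at 1.80. Fosl2 and Fosb were the only neighbours in this order whose WT libraries overlapped. In the knockout Junb, at 106 RPKM, and Jund, at 98.7 RPKM, stood first and second, with KO libraries from 80.4 to 139 and from 95.4 to 105 that overlapped. Mafk (16.8 RPKM) stood above Fosb (12.9 RPKM) in the knockout, and the other ranks were as in WT. Apart from Jund and Fos, and from Fosl2 and Mafk, all neighbours in the KO order had libraries that overlapped. In the FPKM values that the authors computed with Cufflinks, Fos at 88.6 stood above Junb at 69.6 in WT. In the knockout Jund, at 127 FPKM, stood above Junb, at 114 FPKM. The order of these neighbours thus differed between the deposited FPKM and the RPKM from counts. Fosl1 and Atf3, which rose most, were also the least abundant of the 10 per length in the knockout, at 5.10 and 7.65 RPKM.

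The summed RPKM of the 10 genes was 316, 324 and 336 in WT and 392, 346 and 422 in the knockout. Every KO sum was above every WT sum (difference 61.2, exact two-sided permutation p = 0.1, the smallest this design allows). Junb made up 20.8%, 19.4% and 20.7% of that sum in WT and 25.2%, 23.3% and 32.8% in the knockout. The share of Jund was 33.9%, 32% and 32.7% in WT and 24.3%, 27.8% and 24.8% in the knockout. In every KO library the share of Junb was thus above, and that of Jund below, its WT range, with no test run on either. Since shares add up to a fixed total, a lower share of Jund does not mean fewer Jund transcripts.

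The shares of whole families differed less. The Jun family held 67.7%, 65.3% and 67.6% of the summed RPKM in WT and 63%, 65.1% and 67.1% in the knockout (exact two-sided permutation p = 0.2). The Fos family held 27.2%, 29.9% and 27.5% in WT and 29.6%, 27% and 21.7% in the knockout (exact permutation p = 0.4), and the difference of -2.13 percentage points became 0.0813 without KO 3. Neither family's share was separated between genotypes. Within the Fos family, Fosl1 and Fosl2 together held 27.2%, 18.6% and 22.1% of the RPKM in WT and 26%, 34.5% and 57.2% in the knockout (difference 16.6 points, exact permutation p = 0.2). KO 1 lay within the WT range, and without KO 3 the difference was 7.63 points.

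Ratios of pairs of genes were taken within each library. Junb over Jun was 1.6, 1.4 and 1.46 in WT and 1.86, 1.66 and 3.45 in the knockout, without overlap (exact permutation p = 0.1). Fos over Fosl2 was 2.23, 3.67 and 3.02 in WT and 2.58, 1.71 and 0.702 in the knockout, where KO 1 lay within the WT range (exact permutation p = 0.2). In KO 3 alone Fosl2 exceeded Fos per length. Fosl2 over Fosl1 was 10.8, 12.4 and 8.87 in WT and 6.56, 7.1 and 6.15 in the knockout, with every KO ratio below every WT ratio (exact permutation p = 0.1). The p-values of these ratios and shares were not adjusted.

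**Figure D3:**
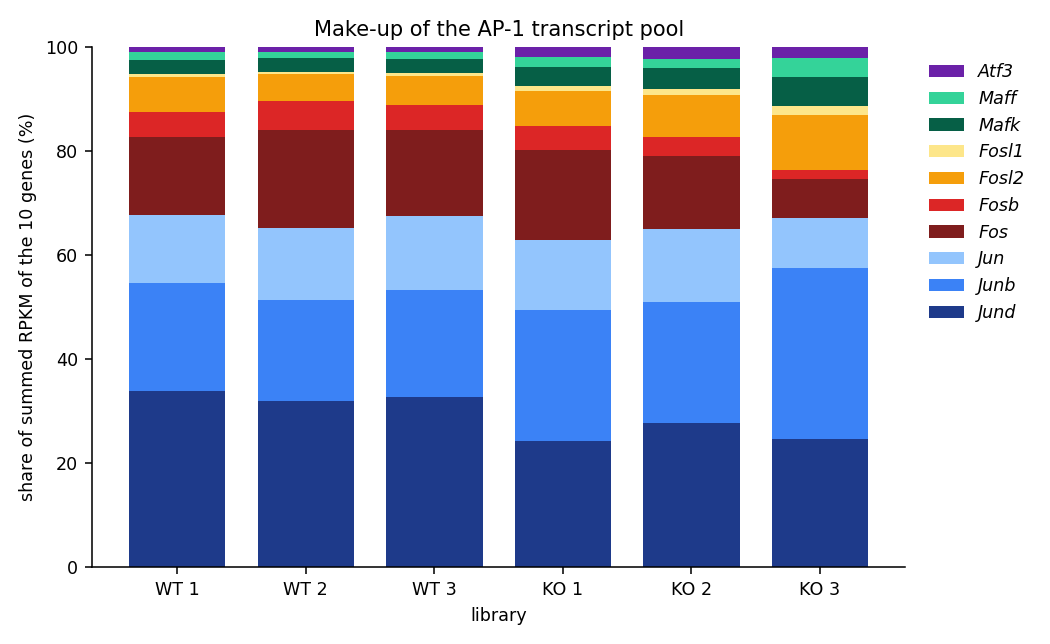
Share of each AP-1 gene in the summed RPKM of the 10 genes (vertical axis, percent) in each library (bars). Junb takes 23.3% to 32.8% in the KO libraries against 19.4% to 20.8% in WT, Jund is smaller in every KO bar, and Fos and Fosb are smallest and Fosl2 largest in KO 3.

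The kinases that relay signals to AP-1 changed in both directions. Of 31 genes of the MAPK cascades tested, 8 rose (25.8%, against 16.4% of all genes), 6 fell (19.4%, against 16.6%) and 17 did not pass, with a median log2 fold change of 0.11. Without WT 1, WT 2 or WT 3 the count that rose was 1, 3 and 1 and the count that fell 1 each, without KO 2 they were 5 and 4, and with the Ddx3y term both were 0. Over all genes 2195 rose and 2218 fell in the main fit. In all, 953, 782 and 694 rose and 994, 833 and 702 fell without WT 1, WT 2 or WT 3. These counts were 1680 and 1574 without KO 2, and 80 and 29 with the Ddx3y term. Hras, a membrane switch upstream of the kinases, lay at 44.7, 43.2 and 42.7 CPM in WT and at 58.2, 68.5 and 88.7 CPM in the knockout (log2 fold change 0.72, edgeR adjusted p = 0.0154). Map2k1 (MEK1) rose by 0.67 and Map2k4, an activator of JNK, by 0.53 on the log2 scale (edgeR adjusted p = 0.0177 and 0.00390). Among the genes that fell were Map2k6, an activator of p38, at -1.17, Mapk10 (JNK3) at -0.98 and Rps6ka1 (RSK1) at -0.88 (edgeR adjusted p = 0.0286, 0.0432 and 0.0215). SRF and its cofactors switch on Fos at the serum response element. Of 5 such genes tested, Mkl1 rose (0.21, edgeR adjusted p = 0.0413) and 4 did not pass, among them Srf at -0.15 (edgeR adjusted p = 0.105). The call of Mkl1 was lost when any 1 library other than KO 3 was left out, and without KO 3 the count that rose was 3. Over all genes 3230 rose without KO 3.

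Of 20 genes tested that act on AP-1 proteins after translation, 3 rose and 3 fell (15% each, near the shares of all genes) and 14 did not pass. Without KO 3 the counts were 8 and 5, without WT 1 or WT 2 they were 1 and 0, and without WT 3 or with the Ddx3y term both were 0. The counts over all genes also grew without KO 3 (3230 and 3280, against 2195 and 2218 in the main fit). They shrank without a WT library and with the Ddx3y term, as given above. Trib1, a scaffold of a ubiquitin ligase, rose by 0.76, and Fbxw7, which marks phosphorylated JUN for degradation, by 0.39 on the log2 scale (edgeR adjusted p = 0.0137 and 0.0117). Men1, whose product menin binds JUND, had a log2 fold change of -0.56, the SUMO protease gene Senp1 of -0.35 and the deacetylase gene Sirt1 of -0.34 (edgeR adjusted p = 0.0242, 0.0150 and 0.0473). Among 27 other bZIP genes, which supply further partners, 4 rose, 5 fell and 18 did not pass, with a median of 0.033. Of the 4 C/EBP genes in this list, Cebpd rose, Cebpa fell, and Cebpb (0.96, edgeR adjusted p = 0.0951) and Cebpg (-0.09, 0.352) did not pass. Cebpd, an acute-phase factor, lay at 4.47, 3.65 and 5.36 CPM in WT and at 19, 14.8 and 57.9 CPM in the knockout (log2 fold change 2.76, edgeR adjusted p = 0.0130). Cebpa, a differentiation factor of fat and myeloid cells, lay at 25.5, 21.3 and 24 CPM in WT and at 8.73, 7.36 and 4.19 CPM in the knockout (-1.80, edgeR adjusted p = 0.00561). Ddit3 (CHOP) rose by 1.02 and Nfe2l1, a CNC partner of the small Mafs, by 0.65, whereas Creb5 and Bach2, another CNC gene, had log2 fold changes of -0.98 and -0.83 (edgeR adjusted p between 0.00652 and 0.0213 for these 4). The shares called among the bZIP genes, 14.8% higher and 18.5% lower, were near those of all genes. With any 1 WT library left out 1 bZIP gene rose and 1 fell, without KO 1 or KO 2 the count that fell was 2, and with the Ddx3y term both were 0. Over all genes 694 to 953 rose and 702 to 994 fell with 1 WT library left out. The count over all genes that fell was 1822 and 1574 without KO 1 or KO 2.

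Genes known as AP-1 targets were mostly higher in the knockout. Of 35 tested, 23 rose, none fell and 12 did not pass, none was lower at an unadjusted p under 0.05 or by DESeq2 or edgeR's exact test, and the median log2 fold change was 1.30 (65.7% higher, against 16.4% of all genes). This list is from textbook knowledge, was made with results of these data known, and many of its genes answer to other factors too. Mmp12, macrophage elastase, lay at 0.618, 0.285 and 0.522 CPM in WT and at 1.81, 3.32 and 6.95 CPM in the knockout (3.07, edgeR adjusted p = 0.0117). Il6, an inflammatory cytokine gene, lay at 0.475, 0.19 and 0.237 CPM in WT and at 1.48, 1.76 and 28.7 CPM in the knockout (5.12, edgeR adjusted p = 0.0358), and Ccl2, a chemokine for monocytes, at 20.4, 23 and 21.5 CPM and at 50, 40.3 and 552 CPM (3.31, edgeR adjusted p = 0.0497). In both genes KO 3 was far above the other libraries, and KO 1 and KO 2 were also above WT. Without KO 3, 28 target genes rose and 2 fell. Without WT 1, WT 2 or WT 3 the count that rose was 14, 11 and 10, and with the Ddx3y term it was 5. Over all genes 2195 rose and 2218 fell in the main fit, and 3230 and 3280 without KO 3. The count over all genes that rose was 953, 782 and 694 without WT 1, WT 2 or WT 3, and 80 with the Ddx3y term.

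Immediate early genes, which are induced together with Fos by serum or stress, were more often higher than lower. Of 27 tested, 14 rose (51.9%, against 16.4% of all genes), 2 fell (7.41%, against 16.6%) and 11 did not pass, with a median of 0.45. Ctgf, a matrix-associated growth factor gene, lay at 81.7, 73.3 and 75.9 CPM in WT and at 226, 213 and 327 CPM in the knockout (1.73, edgeR adjusted p = 0.00287). Dusp1, a MAPK phosphatase gene, lay at 58.1, 52.6 and 55.4 CPM in WT and at 185, 173 and 153 CPM in the knockout (1.62, edgeR adjusted p = 0.00144), with the KO libraries close together. Ier3 rose by 1.63 (edgeR adjusted p = 0.0451). Egr1, an SRF target like Fos, lay at 361, 422 and 393 CPM in WT and at 288, 215 and 146 CPM in the knockout, and so fell in all 3 KO libraries (-0.86, edgeR adjusted p = 0.0311). Its KO libraries stood in the same order as those of Fos and Fosb, with KO 1 highest and KO 3 lowest. The nuclear receptor gene Nr4a2 also fell (-0.71, edgeR adjusted p = 0.0160). The count that rose was 16 without KO 3, 10, 7 and 7 without WT 1, WT 2 or WT 3, and 3 with the Ddx3y term. Without KO 3, 6 of these genes fell. Over all genes 3230 rose and 3280 fell without KO 3, against 2195 and 2218 in the main fit. The count over all genes that rose was 953, 782 and 694 without WT 1, WT 2 or WT 3, and 80 with the Ddx3y term.

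Heat shock genes, which respond to handling of cells, were measured because Fos, Jun and Atf3 also respond to it. Of 11 tested with edgeR, 5 rose, none fell (0 at an unadjusted p under 0.05, 0 by DESeq2 and 0 by the exact test) and 6 did not pass, with a median of 0.20. The share that rose was 45.5%, against 16.4% of all genes. Without KO 3 the count was 8, with any 1 other library left out 3, and with the Ddx3y term 0. Over all genes it was 3230 without KO 3, 694 to 1926 without any 1 other library, and 80 with the Ddx3y term. Hspa1a rose by 1.06, Hspb1 by 0.92 and Hspa1b by 0.91 on the log2 scale (edgeR adjusted p = 0.00491, 0.00834 and 0.00758). The summed level over the list was 4460 to 4590 CPM in WT and 4730 to 5150 CPM in the knockout. Most of this sum was Hspa8, which did not pass (edgeR adjusted p = 0.438), with means of 2638 CPM in WT and 2799 CPM in the knockout. The part of handling in the AP-1 values was not tested.

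**Figure D4:**
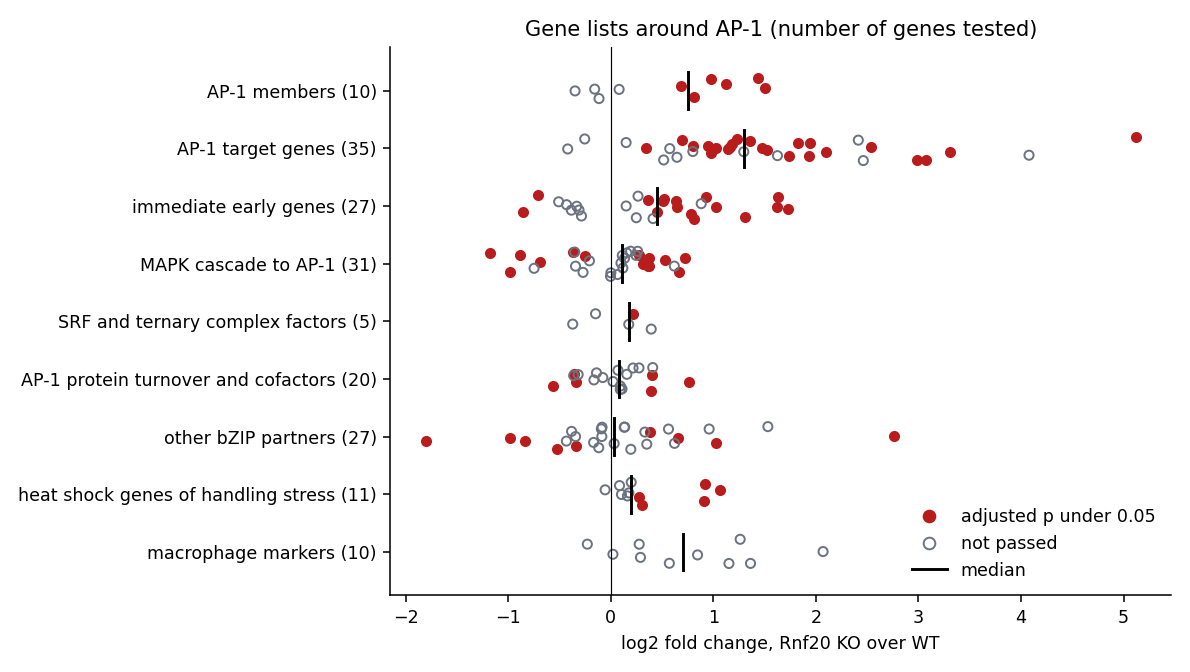
Log2 fold change of Rnf20 KO over WT (horizontal axis) for each gene tested (points) in the AP-1 genes and in lists around them (rows, with the number tested), filled red where the adjusted p was under 0.05 and open otherwise, with black lines at the medians. The AP-1 genes (median 0.75) and AP-1 target genes (1.30) lie mostly to the right of 0, whereas the MAPK (0.11) and other bZIP (0.033) lists are centred near it. The macrophage markers have a median of 0.71, and none of them passed.

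Markers of cell types were read beside these results. The 18 fibroblast markers summed to 34700 to 37700 CPM in WT and to 38200, 47500 and 26400 CPM in KO 1 to 3, and all 18 passed the count filter. Fbln2 rose (1.06), and Fap (-1.22), Pdgfra (-1.22) and Thy1 (-1.11), a surface marker lost early in reprogramming, fell (edgeR adjusted p between 0.00228 and 0.0185), and 14 markers did not pass. Of 10 macrophage markers none passed with edgeR, 1 was higher and 0 lower at an unadjusted p under 0.05, and DESeq2 and the exact test each called 1 higher. Their median log2 fold change was 0.71. Their sum was 49.4, 98.8 and 80.6 CPM in WT and 83.8, 53.6 and 264 CPM in KO 1 to 3, so that it was highest in KO 3, the library in which Il6, Ccl2, Fosl2, Junb and Maff were highest. The defining markers Ptprc and Adgre1 lay at 4.91 and 31.9 CPM there, against 1.14 to 3.09 and 1.76 to 4.27 CPM in WT. Lyz2 alone gave 159 CPM of the sum in KO 3. Cd68, at 8.57 CPM in KO 3, lay within its WT range of 6.7 to 10.5 CPM, and every other marker of the list lay above its own. The part of such cells in the KO 3 values was not tested.

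Of 9 epithelial markers tested, Krt19 rose (1.14) and Cldn3 fell (-2.16), with edgeR adjusted p of 0.0274 and 0.00614, and 7 did not pass. The median log2 fold change was -0.47. At an unadjusted p under 0.05 and by the exact test 1 was higher and 3 lower, and by DESeq2 1 and 2. The sums over the list were 63.2 to 70.5 CPM in WT and 87.9, 61.4 and 25.3 CPM in KO 1 to 3, lowest in KO 3. The endothelial genes Pecam1 and Cdh5 were under the filter, with no counts in WT 3 and at most 0.525 CPM elsewhere, and 0 of 2 endothelial genes tested passed with edgeR. Muscle genes Myod1 and Myog had no counts in WT, and 0 of 2 muscle genes tested passed. For both lists the count was also 0 at an unadjusted p under 0.05, by DESeq2 and by the exact test. The 4 reprogramming factors, whose counts can join RNA of the virus and of the cell's own gene, summed to 1910, 2200 and 2250 CPM in WT and to 1660, 1440 and 1930 CPM in the knockout. Klf4 fell (-0.43, edgeR adjusted p = 0.0176), and Pou5f1, Sox2 and Myc did not pass, whereas without KO 3 all 4 fell. Over all genes 3280 fell without KO 3, against 2218 in the main fit. The part of factor dose in the AP-1 values was not tested.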

How the data were processed

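RNA-seq of 3 WT and 3 Rnf20-/- libraries was analysed, with genotype and replicate number taken from the sample labels. The authors made poly(A)-selected stranded libraries and used HISAT2 2.1.0 for alignment of read pairs to the GRCm38/mm10 genome. The authors deposited whole-number counts per gene, without normalization, and the gene length in bases as another column. The counting program, and whether it used the strand, are not given in the sources used here. The authors also deposited FPKM from Cufflinks 2.1.1 for 12633 genes, beside fold changes and adjusted p-values of their own comparison, which were not used. Positions and exons came from GENCODE M21 on GRCm38, in which 16486 of the 16982 identifiers were found.

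The counts were analysed in R 4.3.3 with edgeR 4.0.16 (TMM, filterByExpr, quasi-likelihood test on genotype, Benjamini-Hochberg adjustment over 13386 genes). The SE of a log2 fold change is its absolute value over the square root of F, and log2 CPM per library uses a prior of 2 counts. A count of 3, the floor, equals 0.142 to 0.143 CPM at these depths, which covers counting error only. Shares were compared by exact permutation over samples. The fits were also run on simulated counts that held no outlying library like KO 3. Their outcome there is not reported here, and no conclusion is drawn from it. The genes named are all members, Rnf20, up to 3 genes in each direction with the largest change among those past the test in each of 14 lists, defining markers of cell types, and the 2 genes closest to each member. Among the genes that this rule picks, 1 is not reported here. Ccdc85b, Prdx2 and the other overlapping genes, Ddx3y and Srf stand outside this rule and were named after their values were seen. The same holds for Cebpb, Cebpg, Pou5f1, Sox2, Myc, Cd68, Lyz2 and Hspa8. The members and lists were chosen with earlier results of these data known. Also tried were the exact test of edgeR, DESeq2 1.42.0, scaling by RLE or by total counts, other low-count filters, an adjusted p under 0.01, the replicate number as a block, a term for Ddx3y, and each library left out.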

Additional observations from a re-analysis of the deposited data

How the results depend on the processing

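The number of AP-1 genes that rose was 6 and stayed at 5 or 6 under scaling by RLE or by total counts, the exact test, DESeq2 and both other low-count filters. It was 1 (Atf3) at an adjusted p under 0.01 and 1 (Atf3) with a term for the detection of Ddx3y. Of all genes tested, 2195 rose in the main fit, 667 at an adjusted p under 0.01 and 80 with the Ddx3y term. Leaving out each library in turn gave 1 to 6 genes that rose and 0 to 1 that fell, the latter being Jund without KO 3. Fewer samples enter these fits. Over all genes the count that rose was 953, 782 and 694 without WT 1, WT 2 or WT 3. It was 1926, 1680 and 3230 without KO 1, KO 2 or KO 3. Over the same fits the log2 fold change of Jun ranged from -0.0048 (without KO 1) to 0.1858 and that of Fos from -0.4514 to 0.0822 (without KO 3), never past the test, and the cause was not tested. The Fos family share differed by -3.91 to 0.0813 percentage points between genotypes when single libraries were left out, with the sign turned without KO 3. No scaling moved the median of all genes by over 0.1 on the log2 scale.

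Replicate numbers are shared by the genotypes but did not pair the samples: deviations of same-numbered libraries correlated at -0.0656, 0.0366 and 0.0109. With the replicate number as a block, 4 AP-1 genes rose, since Fosl2 (edgeR adjusted p = 0.0533) and Maff (0.0543) did not pass, and the genes that rose among all tested numbered 1385 against 2195. With library size only, Maff did not pass (1.06, edgeR adjusted p = 0.0559), nor did it without a filter (1.11, 0.0507). The member with the fewest counts was Fosl1, at 70 in WT 2.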

Other observations

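For each AP-1 gene, the 2 genes whose log2 CPM relative to the WT mean ran closest over the 6 libraries were found by the root mean square (RMS) difference, as a description. Fosb ran closest to Sgsm1 (RMS 0.0413) and to Egr2 (0.0470), which is itself an immediate early gene, and Fos to Tek (0.0698) and Nup210l (0.0741). The nearest to Mafk were Tmbim1 (0.0312) and Bcl2l1 (0.0583), and to Maff Car13 (0.0845) and Pim1 (0.0884). Fosl2 ran closest to Ctsl (0.0460), a lysosomal protease gene, and Shisa4 (0.0671), and Junb to Atp6v1f (0.0649), a subunit of the vacuolar proton pump, and Edf1 (0.0695). Jund ran with Mrpl37 (0.0112) and Pqbp1 (0.0242), and Jun with Dnajc24 (0.0302) and Morc3 (0.0338). Fosl1 ran closest to Gcnt2 (0.0652) and Gpat3 (0.104), and Atf3 to Cobll1 (0.0936) and 9930111J21Rik2 (0.107).

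The deposited FPKM of Jund was 126, 128 and 137 in WT and 113, 115 and 153 in the knockout, so that KO 3 was the highest library, whereas by CPM from the counts KO 3, at 174, lay between the WT libraries. The reason was not tested.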
